A study of Mus musculus with 6 samples.

Results

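Decapping removes the 5′ cap of an mRNA and opens it to exonucleases that digest the body from the 5′ end. The 10 genes described here encode that machinery, and they were followed in mouse granulocytes with and without caffeine during a block of transcription. They are the decapping enzyme gene Dcp2, its cofactor genes Dcp1a and Dcp1b, the enhancer genes Edc3, Edc4, Lsm1, Patl1 and Ddx6, and the exonuclease genes Xrn1 and Xrn2. A member was any probe set annotated to exactly 1 of these symbols, which gave 10 probe sets, 1 for each gene, out of 34760 on the array.

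Granulocyte RNA of the C57BL/6J strain was hybridised to 6 arrays of the type Mouse Gene 1.0 ST (Affymetrix), 3 labelled caffeine+ (called caffeine-plus here) and 3 labelled caffeine- (caffeine-minus). Per the labels' protocols, cells were exposed to 15 mM caffeine for 4 hours and washed, and were then held for 4 hours in 2 µg/ml actinomycin D, which blocks transcription, with caffeine again or on its own. By that text every sample had caffeine first and actinomycin D afterwards, and the groups differed in whether caffeine stayed during the block. The source label of the caffeine-minus samples calls them not treated with caffeine, so the earlier exposure of that group rests on the protocol text. The stated aim was to find transcripts that accumulate when nonsense-mediated decay (NMD) is inhibited. The labels do not tell whether replicates are separate animals or cultures, and p-values then reflect only how far these arrays spread, possibly for technical reasons.

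In the cytoplasm, the DCP2 enzyme is switched on by DCP1 and by enhancer proteins that gather on an mRNA whose poly(A) tail has been shortened. The LSM1-7 ring and PATL1 bind the shortened end, DDX6 and the EDC proteins connect them to DCP2, and XRN1 then degrades the uncapped RNA. NMD also ends in these enzymes, because UPF1 and the SMG proteins recruit decapping factors and XRN1 to mRNAs with premature stop codons. XRN2 is the nuclear counterpart of XRN1 and acts in transcription termination and in the processing of ribosomal RNA.

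The median log2 value of an array lay between 6.49 and 6.60, and arrays of the same group correlated at r = 0.986 to 0.992 across probe sets against 0.959 to 0.965 between groups. A marker was called lower or higher at a limma Benjamini-Hochberg adjusted p under 0.05. That threshold marked 18.6% of probe sets with 1 gene symbol as lower and 14.8% as higher. Among those at least as bright as the dimmest of the decapping and exonuclease genes, it marked 31.2% in each direction. All 12 granulocyte markers were lower in caffeine-plus, with a summed linear signal of 17903 to 18696 there and 26973 to 28463 in caffeine-minus. Of the markers of other cells, 5 of 8 for monocytes and macrophages were lower and 1 was higher (summed signal 5082 to 5320 against 6356 to 6719). In 6 of the 8 every caffeine-plus array was below every caffeine-minus array, and in 1 every caffeine-plus array was above. The higher gene, Cd68 (log2 difference 0.82), was the brightest of the 8 over all arrays, so it weighs heavily in the sum. Ccr2 and Ly86 had the largest falls, at -1.58 and -1.42. Of the eosinophil, basophil and mast cell markers 3 of 5 were lower (4692 to 4801 against 7605 to 8474). In all 5 every caffeine-plus array was below every caffeine-minus array. The B cell, T and NK cell and erythroid lists each had 1 gene lower, of 4, 7 and 5 measured, with summed signals of 249 to 299 against 475 to 487, 736 to 817 against 866 to 939, and 392 to 426 against 457 to 507. These genes were Cd79b (log2 difference -1.72), Nkg7 (-0.35) and Alas2 (-0.65), each the brightest of its list and so the one that weighs most in the sum. The other genes of these lists did not pass, and the B cell genes Cd79a, Pax5 and Ms4a1 differed by 0.16, 0.09 and -0.03. The files carry no detection calls, so no marker could be read as absent, and the lowest mean was that of the B cell gene Ms4a1 at a log2 value of 4.25. What part these shifts had in the values below was not tested.

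Of the 10 genes, 5 rose in the caffeine-plus cells, 3 fell and 2 did not pass the test (limma, Benjamini-Hochberg adjusted p under 0.05 over all 34760 probe sets). Patl1 rose 2.41-fold, Xrn1 2.05-fold, Xrn2 1.81-fold, Dcp1a 1.79-fold and Edc4 1.53-fold. Dcp1b was 1.61-fold lower, Dcp2 1.30-fold lower and Lsm1 1.27-fold lower, and Ddx6 and Edc3 had the smallest differences. The differences thus ran in both directions inside the machinery, with the decapping enzyme gene itself among those that fell. Over the 21640 probe sets with 1 gene symbol, 33.4% passed, 14.8% higher and 18.6% lower. Among those at least as bright as the dimmest of the 10 genes, a background chosen after the values were seen, 62.4% passed, 31.2% in each direction. The count of 8 of 10 therefore stands beside a high background and is not read as a property of these genes. In mean level the 10 genes ran from percentile 59.0 (Edc4) to 98.3 (Ddx6) of the probe sets with 1 gene symbol, most of which were thus dimmer. The median log2 difference of the 10 genes was 0.37, against -0.04 for all those probe sets, and that contrast was not tested. These values are relative to the other RNA on the array, and in cell populations a smaller number of cells of a type and less RNA per cell cannot be told apart.

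**Figure D1:**
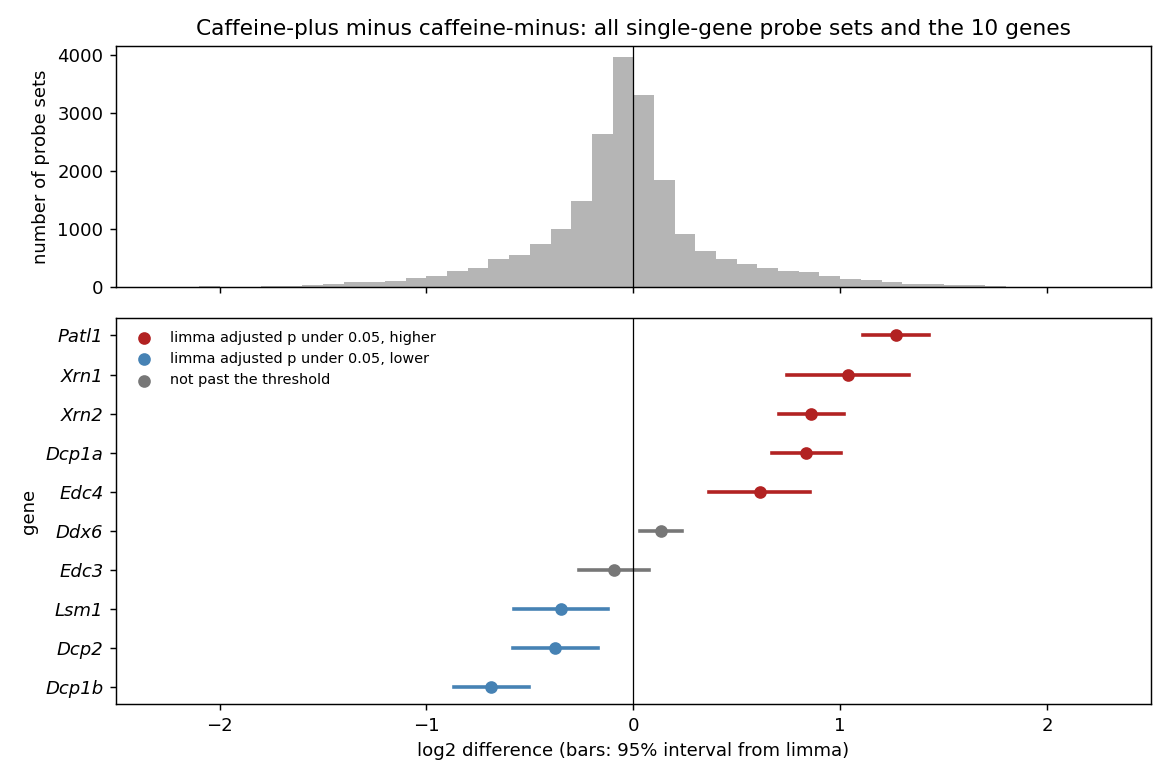
Upper panel: number of probe sets (vertical axis) by log2 difference, caffeine-plus minus caffeine-minus (horizontal axis, cut off at the ends), for 21640 probe sets with 1 gene symbol. Lower panel: the 10 genes on the same axis with limma's 95% intervals, in red where higher, blue where lower and grey where the threshold was not passed. Patl1 is farthest to the right at 1.27 and Dcp1b farthest to the left at -0.69.

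The windows around the annotated starts of 4 of these genes are shown because they belong to the 2 largest rises, Patl1 and Xrn1, and to the Dcp1 pair that moved in opposite directions. Each runs from 250 bases before to 50 bases after a RefSeq start, build GRCm38.p6, with capitals marking matches to any of 6 motifs searched on both strands.
Patl1, chr19:11912149-11912448, + strand: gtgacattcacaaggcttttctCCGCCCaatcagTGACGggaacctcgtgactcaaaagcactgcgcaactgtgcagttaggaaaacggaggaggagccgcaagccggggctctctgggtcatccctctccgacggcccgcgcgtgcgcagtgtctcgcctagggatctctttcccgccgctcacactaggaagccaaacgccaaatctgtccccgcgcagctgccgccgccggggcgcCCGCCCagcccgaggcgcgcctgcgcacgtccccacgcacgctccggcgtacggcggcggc
Xrn1, chr9:95954510-95954809, + strand: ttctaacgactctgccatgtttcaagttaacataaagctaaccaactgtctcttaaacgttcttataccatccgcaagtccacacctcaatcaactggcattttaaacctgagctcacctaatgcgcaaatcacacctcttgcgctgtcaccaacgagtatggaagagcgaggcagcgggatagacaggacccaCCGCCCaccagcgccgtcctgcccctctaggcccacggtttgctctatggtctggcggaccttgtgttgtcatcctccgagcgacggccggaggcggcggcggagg
Dcp1a, chr14:30479315-30479614, + strand: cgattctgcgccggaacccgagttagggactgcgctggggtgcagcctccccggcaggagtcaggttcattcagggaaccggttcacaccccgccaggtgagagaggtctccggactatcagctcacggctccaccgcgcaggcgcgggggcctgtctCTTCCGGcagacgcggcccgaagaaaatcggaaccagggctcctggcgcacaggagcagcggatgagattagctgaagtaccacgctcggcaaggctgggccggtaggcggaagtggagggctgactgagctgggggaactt
Dcp1b, chr6:119175003-119175302, + strand: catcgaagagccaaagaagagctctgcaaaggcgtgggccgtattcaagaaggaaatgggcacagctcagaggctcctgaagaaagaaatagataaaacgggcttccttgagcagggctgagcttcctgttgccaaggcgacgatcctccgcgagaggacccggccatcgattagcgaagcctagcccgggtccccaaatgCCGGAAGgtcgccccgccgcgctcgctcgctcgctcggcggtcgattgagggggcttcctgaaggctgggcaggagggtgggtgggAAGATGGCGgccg

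The motifs were the cAMP response element (CRE, TGACGTCA), its core (TGACG, which lies inside the full element), the ETS core (CCGGAAG), the NRF1 motif, the YY1 motif (AAGATGGCG) and the Sp1 box (GGGCGG). Windows for 7 of the 10 genes were searched, without Dcp2, Lsm1 and Ddx6, beside 32851 windows of the same length from 27025 genes of all kinds. The ETS core was present in 4 of the 7, in Dcp1a, Edc4 and Xrn2, which rose, and in Dcp1b, which fell, against 8.86% of all windows. Matches to the Sp1 box lay in Patl1, Xrn1 and Edc3 (35.7% of all windows) and to the CRE core in Patl1 and Xrn2 (20.8%). The YY1 motif was matched in Dcp1b alone of the 7 (1.40% of all windows). The full CRE (1.79%) and the NRF1 motif (0.971%) were matched in none of the 7 windows. The G and C content was 67.3% in Patl1, 65.3% in Dcp1a, 62.0% in Xrn2 and 61.7% in Dcp1b. It was 55.0% in Xrn1, 53.7% in Edc4 and 53.0% in Edc3, against a median of 52.7% over all windows. The number of CG pairs ran from 8 in Edc4 to 36 in Patl1, against a median of 7 over all windows. The ETS core itself holds a CG pair, and the shares of all windows were not matched for such content. By the protocol text, actinomycin D was present in both groups while they differed in caffeine. The arrays measured RNA levels, not promoter use, and a match describes the letters of the window only.

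Dcp2 encodes the hydrolase that cuts the cap. Its log2 values were 8.70, 8.61 and 8.60 in the caffeine-plus arrays and 9.17, 8.98 and 8.88 in the caffeine-minus arrays. All 3 caffeine-plus arrays were below all 3 caffeine-minus arrays. The log2 difference was -0.38 ± 0.09 (SE, limma adjusted p = 0.0142), with a 95% interval of -0.58 to -0.17. The call was lost without caffeine-plus array 2 (limma adjusted p = 0.0538) or 3 (0.0514), with a range of 0.0015 to 0.0538 over 17 alternative settings. The difference was negative in all 17.

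Dcp1a encodes a partner of DCP2, a cofactor that holds the enzyme in its active form. Its log2 values were 8.39, 8.40 and 8.35 with caffeine and 7.48, 7.60 and 7.54 without. The groups were 0.75 apart at their nearest arrays, while arrays of the same group spanned at most 0.12. The log2 difference was 0.84 ± 0.07 (SE, limma adjusted p = 0.000105), and 4.60% of probe sets with 1 gene symbol had a higher difference.

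Dcp1b encodes a related DCP1 protein of mammalian cells. It took values of 7.41, 7.28 and 7.44 with caffeine and 8.09, 8.02 and 8.08 without. Here every caffeine-plus array was below every caffeine-minus array, with a gap of 0.58. The log2 difference was -0.69 ± 0.08 (SE, limma adjusted p = 0.000427), and 7.11% of probe sets with 1 gene symbol had a lower difference. Dcp1b was the most reduced of the 10 genes. The span of Dcp1a overlaps that of the calcium channel gene Cacna1d in the reference annotation, and the span of Dcp1b that of Cacna1c, another calcium channel gene. Those genes differed by -0.17 ± 0.10 (limma adjusted p = 0.284) and 0.04 ± 0.15 (0.903), at mean log2 levels of 5.93 and 5.54. Non-coding RNA genes overlap Dcp1a, Patl1 and Xrn1, pseudogenes overlap Lsm1 and Ddx6, and none of these had a probe set of its own.

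**Figure D2:**
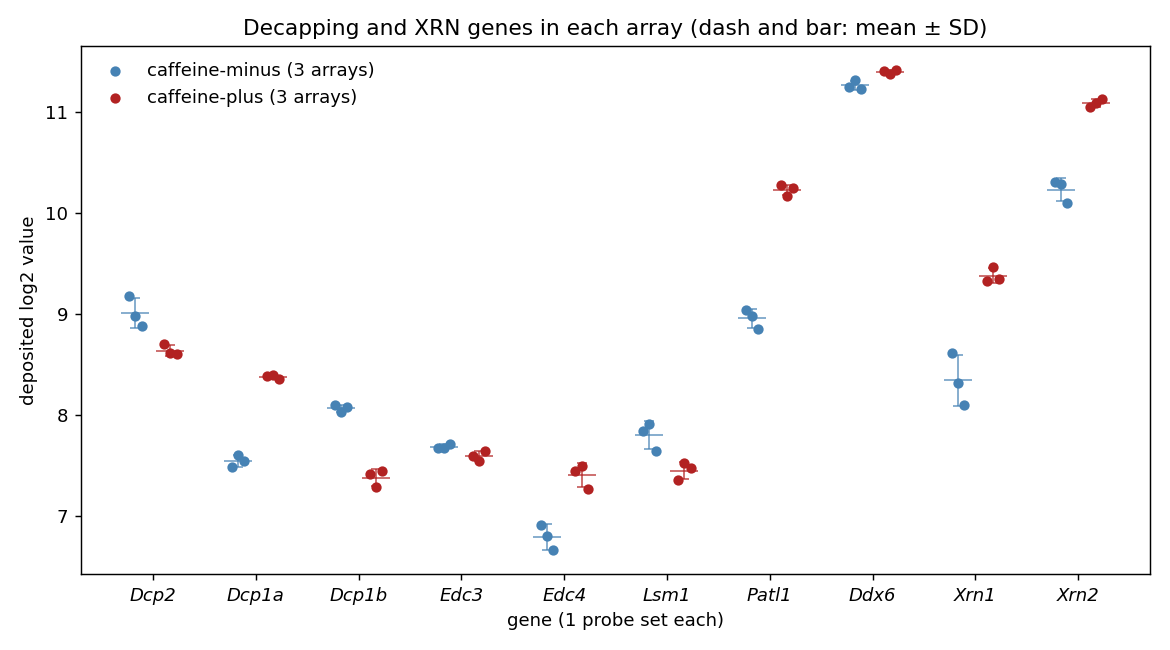
Deposited log2 value (vertical axis) of each of the 10 genes (horizontal axis, 1 probe set each) in the 3 caffeine-minus arrays (blue) and the 3 caffeine-plus arrays (red), with a dash and bar for the mean ± SD of each group. The groups are farthest apart for Patl1, with a gap of 1.14 between the nearest arrays, and closest for Edc3, with a gap of 0.03. Heights of different genes come from different probes and are not to be set against each other.

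Edc4 encodes a large scaffold protein that joins DCP1 and DCP2 in animal cells. It gave 7.44, 7.50 and 7.27 with caffeine and 6.91, 6.80 and 6.66 without. The lowest caffeine-plus array was 0.36 above the highest caffeine-minus array. Edc4 rose by a log2 difference of 0.61 ± 0.10 (SE, limma adjusted p = 0.00311). The 95% interval was 0.37 to 0.85.

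Edc3 encodes another scaffold, which links DCP2 to DDX6. It gave 7.60, 7.54 and 7.64 with caffeine and 7.67, 7.67 and 7.71 without. The caffeine-plus arrays were all lower, but by only 0.03 at the nearest point, less than the 0.09 spanned by the caffeine-plus arrays themselves. The log2 difference of -0.09 ± 0.07 did not pass (limma adjusted p = 0.432), with a 95% interval of -0.26 to 0.08. That interval leaves out a rise of the size seen in Edc4. For all 10 genes the groups did not overlap, which was also so for 46% of probe sets with 1 gene symbol, so a lack of overlap alone was common on these arrays.

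Patl1 encodes a platform protein that binds the LSM1-7 ring, DDX6 and the decapping enzyme, and it had the largest rise of the 10. Its log2 values were 10.27, 10.17 and 10.24 with caffeine and 9.03, 8.98 and 8.85 without. The gap between the groups, 1.14, was far larger than the 0.18 spanned within a group. The log2 difference was 1.27 ± 0.07 (SE, limma adjusted p = 1.9e-05), and 1.30% of probe sets with 1 gene symbol had a higher difference. Its start window, shown above, held a CRE core and 2 matches to the Sp1 box.

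Lsm1 encodes the subunit that sets the cytoplasmic LSM1-7 ring apart from the nuclear LSM2-8 ring. Its values were 7.35, 7.52 and 7.48 with caffeine and 7.84, 7.91 and 7.64 without. The caffeine-plus arrays were lower, with a gap of 0.12 that was smaller than the range of 0.27 within caffeine-minus. Lsm1 fell by 0.35 on the log2 scale (SE 0.10, limma adjusted p = 0.0305). This was the weakest of the 8 calls. It was lost when any of the caffeine-plus arrays was left out (limma adjusted p = 0.116, 0.058 and 0.0686 without array 1, 2 and 3), when caffeine-minus array 1 (0.0828) or 2 (0.096) was, and with arrays centred on their medians (0.0817), in a range of 0.00694 to 0.116 over 17 settings.

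Ddx6 encodes the DEAD-box helicase that couples translational repression to decapping. Its log2 values were 11.40, 11.37 and 11.41 with caffeine and 11.24, 11.31 and 11.23 without. The arrays of the groups did not overlap, and the gap was 0.06. The log2 difference of 0.13 ± 0.04 was just outside the threshold (limma adjusted p = 0.0578, unadjusted p = 0.018). It passed in 7 of 17 other settings, among them quantile normalization (0.00902) and a fit of only the probe sets with 1 gene symbol (0.0436), with adjusted p from 0.00902 to 0.231. The difference was 1.10-fold as deposited, and its log2 value ran from 0.12 to 0.19 over the 17 settings, against 1.19 to 1.33 for Patl1.

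Xrn1 encodes the cytoplasmic exonuclease that digests decapped mRNA. In log2 values it gave 9.33, 9.47 and 9.35 with caffeine and 8.61, 8.31 and 8.10 without. The caffeine-minus arrays spanned 0.51, the widest range of any of the 10 genes in either group, and the lowest caffeine-plus array was still 0.72 above the highest of them. The log2 difference was 1.04 ± 0.13 (SE, limma adjusted p = 0.000595).

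Xrn2 encodes the nuclear exonuclease. It gave 11.05, 11.09 and 11.13 with caffeine and 10.31, 10.28 and 10.10 without. The gap between groups was 0.74, and the log2 difference was 0.86 ± 0.07 (SE, limma adjusted p = 7.66e-05). Both exonuclease genes thus rose, and 2.65% and 4.31% of probe sets with 1 gene symbol had a higher difference than Xrn1 and Xrn2.

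Genes of like role were set against each other within each array, by subtracting the log2 value of the second from that of the first. Such a ratio shows only whether the 2 genes changed unequally. For Dcp1a minus Dcp1b it was 0.98, 1.11 and 0.91 in the caffeine-plus arrays and -0.61, -0.42 and -0.54 in the caffeine-minus arrays. The shift between groups was 1.52 ± 0.08 (SE, n = 3 arrays per group), and no array of either group came near the other. For Edc3 minus Edc4 the ratio was 0.16, 0.05 and 0.37 with caffeine and 0.76, 0.87 and 1.05 without. That shift was -0.70 ± 0.13, again with no overlap. For Xrn1 minus Xrn2 the ratio was -1.72, -1.62 and -1.79 with caffeine and -1.70, -1.97 and -1.998 without. Here the groups overlapped and the shift was 0.18 ± 0.11. In a two-sided exact permutation test the Dcp1 and Edc pairs gave p = 0.1, the smallest that 3 arrays against 3 allow, and the Xrn pair p = 0.3 (0.15, 0.15 and 0.3 adjusted over the 3 pairs). None of the 3 could therefore pass 0.05 in this test, whatever its size.

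**Figure D3:**
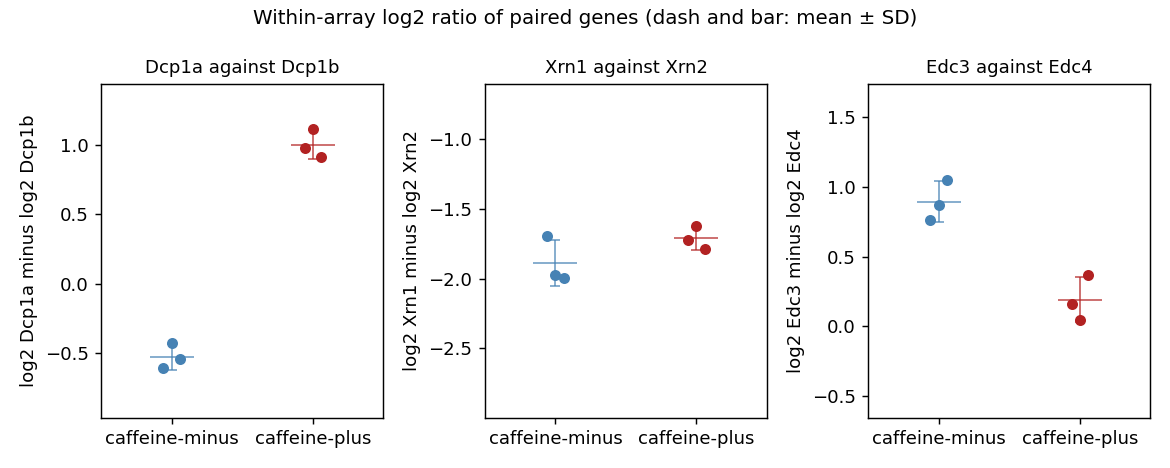
Log2 value of the first gene minus that of the second in each array (vertical axes, all with the same number of log2 units) for caffeine-minus (blue) and caffeine-plus (red), with a dash and bar for the mean ± SD of 3 arrays. The group means are 1.52 apart for Dcp1a against Dcp1b, 0.18 apart for Xrn1 against Xrn2, and 0.70 apart in the other direction for Edc3 against Edc4.

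Beyond the 10 genes, 30 others of the pathway were listed from their known roles, and 28 had a probe set of their own. Of these 10 rose, 9 fell and 9 did not pass, a gene being counted at the brightest of its probe sets. Their median log2 difference was -0.05. Of probe sets with 1 gene symbol 14.8% were higher and 18.6% lower. Among those at least as bright as the dimmest member, 31.2% were called in each direction. The counts are therefore not read as a property of these genes. The groups differed in direction, with no test of that difference made.

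Among the other genes of the LSM1-7 and LSM2-8 rings, Lsm2 to Lsm7 belong to both and Lsm8 to the nuclear ring only. Of these 7 genes 5 fell, 0 rose and the median was -0.36. Of probe sets with 1 gene symbol 18.6% were lower, and 31.2% of those at least as bright as the dimmest member. The count at an unadjusted p under 0.05 was also 5 lower and 0 higher in limma, and over the 17 settings 4 to 6 fell. Lsm1 went the same way. Lsm5, a ring subunit, had log2 values of 9.27, 9.42 and 9.28 with caffeine and 9.85, 9.999 and 9.85 without. It fell by 0.58 on the log2 scale (SE 0.07, limma adjusted p = 0.000695), and its other probe sets gave -0.43 and -0.58, both past the threshold. Lsm7, another ring subunit, gave 8.89, 8.90 and 8.90 against 9.39, 9.39 and 9.27, and fell by 0.45 (SE 0.06, limma adjusted p = 0.00107). A dimmer Lsm7 probe set differed by -0.14 ± 0.11 and did not pass.

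Repressors and scaffolds of P-bodies, the granules in which decapping factors gather, made up another group, which also held the cap-binding gene Eif4e. Of its 10 genes 7 rose, 0 fell and the median was 0.36. Eif4e was 1 of the 7, at 0.34 ± 0.09 (SE, limma adjusted p = 0.0214). Its other probe sets gave 0.68, which passed, and 0.08, which did not. Of probe sets with 1 gene symbol 14.8% were higher, and 31.2% of those at least as bright as the dimmest member. At an unadjusted p under 0.05 limma gave 8 higher and 0 lower, and over the 17 settings 5 to 8 rose. Lsm14a encodes a DDX6 partner that holds mRNAs in a repressed state. It took log2 values of 10.67, 10.77 and 10.89 with caffeine and 10.10, 10.10 and 9.93 without, a difference of 0.73 ± 0.08 (SE, limma adjusted p = 0.00027). Its paralog Lsm14b rose by 0.65 ± 0.12 (limma adjusted p = 0.00451), from 6.97 to 7.29 in the caffeine-minus arrays up to 7.69 to 7.98 with caffeine. In both paralogs the groups stood apart, so this pair moved alike in direction where the Dcp1 pair did not.

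Of 5 other decapping enzymes and adaptors, 1 rose and 2 fell (14.8% of probe sets with 1 gene symbol were higher and 18.6% lower). Nudt16, which encodes another decapping enzyme, had the largest fall of the 28 genes at -0.91 ± 0.10 (limma adjusted p = 0.000383), with 7.61, 7.97 and 7.82 against 8.74, 8.73 and 8.65. Pnrc2, an adaptor that ties UPF1 to DCP1A in NMD, fell by 0.46 (SE 0.09, limma adjusted p = 0.00558), from 10.62, 10.63 and 10.38 to 10.08, 10.20 and 9.99. Its paralog Pnrc1 rose by 0.58 ± 0.10 (limma adjusted p = 0.00315). Among 6 genes around XRN2 and 5′-to-3′ decay, 2 rose and 2 fell, beside the same shares of all probe sets with 1 gene symbol. Cdkn2aip, whose protein binds XRN2, rose by 1.01 ± 0.12 (limma adjusted p = 0.000518), with 8.31, 8.29 and 7.999 against 7.35, 7.17 and 7.04. Cdkn2aipnl, which encodes a related XRN2-binding protein, fell by 0.53 (SE 0.11, limma adjusted p = 0.00762). Pcf11, a termination factor gene, rose by 0.66 ± 0.09 (limma adjusted p = 0.00105), and Bpnt1, the gene of a phosphatase that removes an inhibitor of XRN enzymes, fell by 0.37 (SE 0.09, limma adjusted p = 0.0196). The Bpnt1 call was lost when caffeine-plus array 1 (limma adjusted p = 0.0803) or 3 (0.0507) or caffeine-minus array 1 (0.0592) was left out, in a range of 0.00413 to 0.0803.

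**Figure D4:**
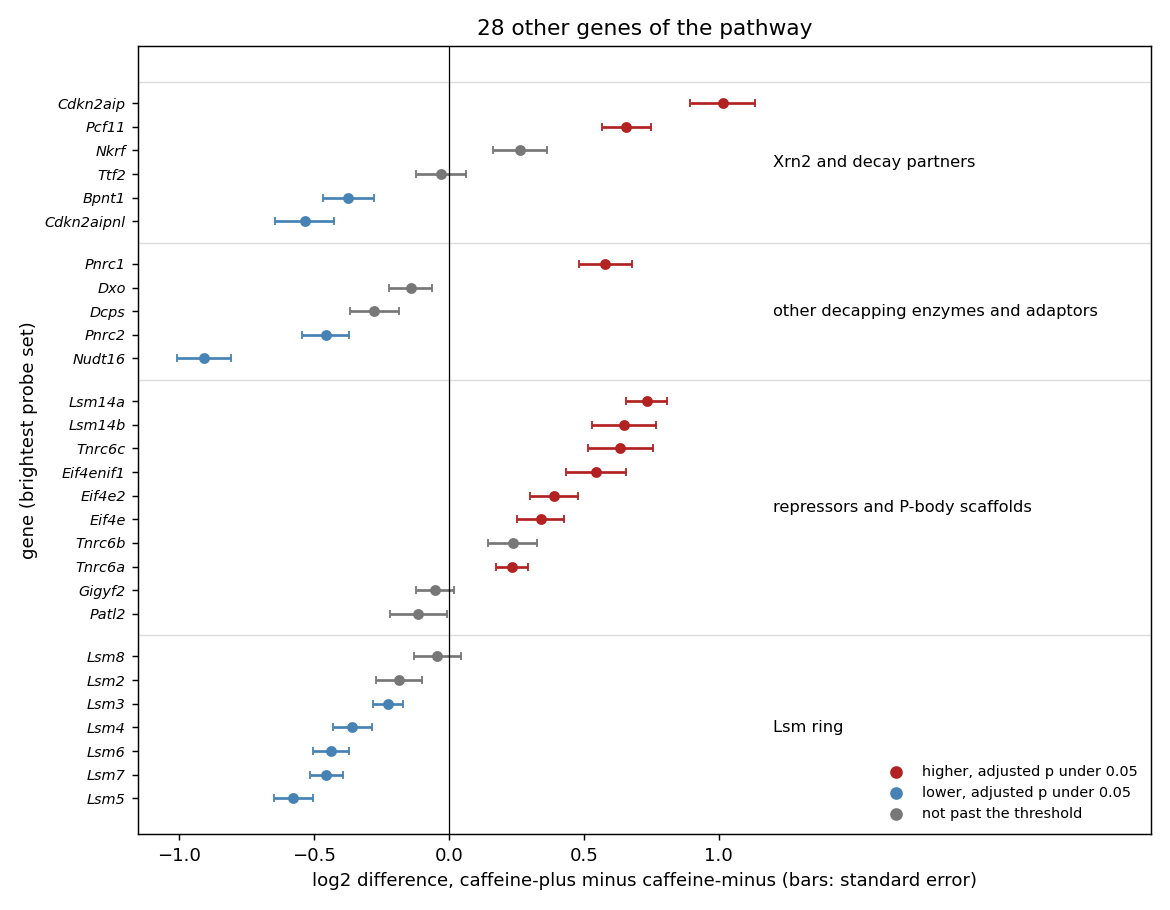
Log2 difference, caffeine-plus minus caffeine-minus (horizontal axis), of 28 other genes of the pathway in 4 groups (vertical axis), each at its brightest probe set with its standard error, in red where higher, blue where lower and grey where the threshold was not passed. All 5 called ring genes lie left of 0. All 7 called genes of the repressor and scaffold group, which includes the cap-binding gene Eif4e, lie right of it. The extremes are Cdkn2aip at 1.01 and Nudt16 at -0.91.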

How the data were processed

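For 6 arrays the deposited values of 34760 probe sets were taken as log2 values that the authors had normalized. The unit is not stated and was read from their range of 1.90 to 13.98. How they were summarized and normalized, and on which build, is not given here. Per the labels' protocols, 300 ng of Trizol-extracted RNA was labelled. The platform annotation gives 21640 probe sets 1 gene symbol and 1321 several, and does not list 11799. Groups were compared on every probe set with limma 3.58.1 in R 4.3.3 (lmFit, eBayes with an intensity trend, two-sided, Benjamini-Hochberg, threshold 0.05, 95% intervals), which was also tested on simulated data. Other genes were counted at their brightest probe set, and the 2 with the largest rise and the 2 with the largest fall among those called in each group were named. The members and lists were chosen with earlier results of these data known. The alternatives covered normalization, filters, probe set choice, variance models, a replicate block and leaving out each array. No 2 arrays were identical. The number of arrays limits the precision, and in dim probe sets a difference is an underestimate.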

Additional observations from a re-analysis of the deposited data

How the results depend on the processing

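Each of the 10 genes was refitted under 17 settings, and of the 170 values 155 kept their side of the threshold, 8 lost a call (Lsm1 and Dcp2), 7 gained the call of Ddx6 and none reversed. The 5 rises passed in every setting run, so 5 or 6 of the 10 genes were higher. The count of lower genes was 3, with a range of 1 to 3 when arrays were left out in turn. It was 1 without caffeine-plus array 2 and 1 without caffeine-plus array 3. Lsm1 alone lost its call without caffeine-plus array 1, without caffeine-minus array 1 or 2, and with arrays centred on their medians. Over all probe sets, 4820 were higher and 5626 lower, against 3966 to 4814 and 4461 to 5696 without an array, and with arrays centred on their medians 5349 and 4729. With the replicate number as a block 4845 were higher and 5534 lower, and of the 10 genes 5 and 3. Same-numbered arrays deviated together at r = -0.04, 0.10 and 0.21. Caffeine-plus arrays 2 and 3 were each closest to the caffeine-minus array of the same number, and caffeine-plus array 1 to caffeine-minus array 2 (0.12). The labels do not say that the numbers pair the arrays, and the main fit took no pairing. The Dcp1, Edc and Xrn shifts ran from 1.47 to 1.57, -0.79 to -0.62 and 0.12 to 0.28. The median difference of all probe sets moved from -0.02 to 0.03 when arrays were centred.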
